A study of Mus musculus with 8 samples.

Results

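The IFI200 genes, also called the PYHIN family, lie side by side on mouse chromosome 1 and respond to interferon. The symbols followed here were measured in osteoclasts with and without ELMO1, a protein that acts with DOCK proteins to activate the small GTPase RAC, and all 10 were found by symbol among the 46517 genes of the table: Ifi203, Ifi203-ps, Ifi204, Ifi205, Ifi207, Ifi209, Ifi211, Ifi213, Mndal and Aim2. All 10 passed the filter on low values, among 14139 genes tested. The members were fixed by name and not by their values, although earlier results of these data were known when they were chosen. The table holds 4 further PYHIN genes, Ifi202b, Ifi206, Ifi208 and Ifi214, which are used only for comparison.

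Bone marrow cells of 4 Elmo1-/- and 4 Elmo1+/- animals were turned into osteoclasts in culture, and each animal gave 1 RNA library. The controls keep 1 intact copy of Elmo1, although the library titles call them WT, and the Elmo1-/- mice lack the gene in all cells. Mice were 6 to 8 weeks old, and cells of both genotypes were cultured with 10% L929 cell-conditioned medium, a source of M-CSF, and 50 ng/ml of GST-RANKL, the cytokine that drives osteoclast formation, until day 7. The methods place 2 mice per genotype in each of 2 experiments without saying which libraries belong to which. Elmo1 itself was between 274 and 316 normalized counts in Elmo1-/- and between 1423 and 1769 in Elmo1+/- libraries. Values are read counts divided by 1 size factor per library, here called normalized counts, and between 20905502 and 40846651 reads fell on genes.

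PYHIN proteins typically join a pyrin domain, which binds other pyrin domains, to a HIN domain, which binds double-stranded DNA. Aim2 senses DNA in the cytosol and recruits the adaptor ASC, the product of Pycard, so that caspase-1 cleaves interleukin-1 beta and gasdermin D. Other members work mostly in the nucleus, where they act on transcription and on growth arrest, and type I and type II interferons raise many of them in macrophages, the lineage from which osteoclasts form.

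The stretches directly upstream of the annotated starts are shown because most of them hold the core of the interferon-stimulated response element (ISRE), a short site in the promoters of many interferon-stimulated genes. They are RefSeq sequence of build GRCm38.p6, written 5′ to 3′ on the strand of the gene and ending at the base before the start. Capitals mark a match to the core GAAANNGAAA on either strand.
Ifi203 (chr1:173942493-173942612, minus strand): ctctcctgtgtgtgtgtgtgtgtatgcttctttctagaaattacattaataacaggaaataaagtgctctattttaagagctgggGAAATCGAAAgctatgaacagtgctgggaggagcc
Mndal (chr1:173880188-173880307, minus strand): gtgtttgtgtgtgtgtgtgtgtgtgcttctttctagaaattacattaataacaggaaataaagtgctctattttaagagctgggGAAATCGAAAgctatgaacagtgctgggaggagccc
Ifi207 (chr1:173741810-173741929, minus strand): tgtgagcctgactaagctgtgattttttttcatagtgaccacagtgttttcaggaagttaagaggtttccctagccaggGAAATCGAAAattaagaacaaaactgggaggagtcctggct
Ifi211 (chr1:173913047-173913166, minus strand): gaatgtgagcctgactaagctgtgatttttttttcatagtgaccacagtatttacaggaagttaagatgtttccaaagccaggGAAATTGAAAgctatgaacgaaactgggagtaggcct
Ifi205 (chr1:174031756-174031899, minus strand): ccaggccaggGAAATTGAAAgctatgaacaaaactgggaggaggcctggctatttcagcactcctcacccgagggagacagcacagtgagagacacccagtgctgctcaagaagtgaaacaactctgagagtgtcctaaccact
Ifi213 (chr1:173599273-173599392, minus strand): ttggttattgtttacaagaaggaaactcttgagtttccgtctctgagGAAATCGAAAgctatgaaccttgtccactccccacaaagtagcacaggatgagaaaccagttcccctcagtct
Ifi209 (chr1:173630739-173630858, plus strand): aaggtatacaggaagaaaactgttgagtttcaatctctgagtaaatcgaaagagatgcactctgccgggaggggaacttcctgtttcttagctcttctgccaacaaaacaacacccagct
Aim2 (chr1:173420484-173420603, plus strand): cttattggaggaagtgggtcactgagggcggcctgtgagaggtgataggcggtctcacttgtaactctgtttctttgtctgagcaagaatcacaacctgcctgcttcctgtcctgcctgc

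Of the members, 8 had a promoter in the table of RefSeq windows, and Ifi204 and Ifi203-ps had none. The core GAAANNGAAA, searched on both strands from 250 bases before to 50 after the start, was in the windows of 6 of these 8 members and in 3.448% of all 32544 windows. A member counted if any of its windows held the core, so its count is per gene and the share is per window. In 4 members, Ifi203, Mndal, Ifi207 and Ifi213, it had the same letters, GAAATCGAAA. Before the start, 13 of all windows (0.03995%) held this run, of which 7 belong to PYHIN genes. The run was picked because it was the most frequent core match in these same PYHIN windows. Its excess in them was thus set by the choice and is not evidence of a site particular to the family. Ifi205 and Ifi211 held GAAATTGAAA, which differs from that run by C6T, with positions counted from 1 at its 5′ end. The closest run upstream of Ifi209 differed from GAAATCGAAA by G1T, and that upstream of Aim2 differed at 3 positions. Ifi203 and Mndal each had a second annotated start in the table, whose window held no core in Ifi203 and a different match in Mndal.

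The first base of the core lay 35 bases before the start in Ifi203, 36 in Mndal, 37 in Ifi211 and 41 in Ifi207, and 73 bases before it in Ifi213. In Ifi205 it lay 134 bases before the annotated start, with another match on the other strand after the start. Upstream sequence was also shared more widely, with unbroken common runs of 96 bases between Ifi203 and Mndal and 42 between Ifi205 and Ifi211. Such runs were 109 bases between Ifi209 and Ifi214, and 135 between Ifi213 and each of Ifi206 and Ifi208. The windows therefore do not count as independent sites. The core of the gamma-activated site, TTCNNNGAA, a site of genes that respond to interferon gamma, was in the windows of 0 of the 8 members and in 8.327% of all windows. These matches describe letters only.

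**Figure D1:**
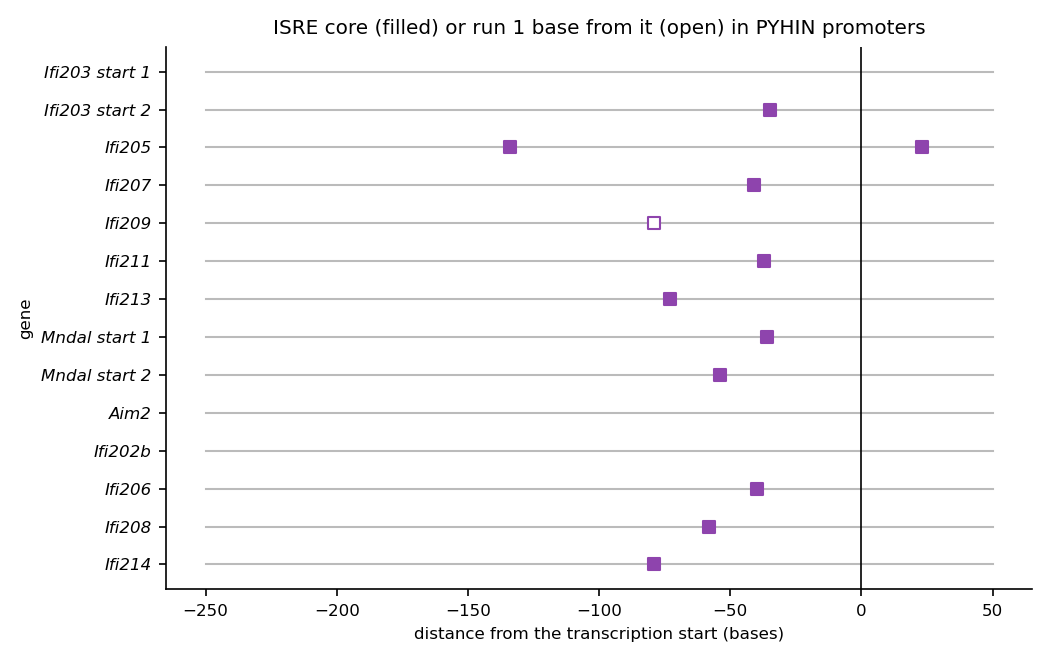
Position of the ISRE core in the promoter windows of PYHIN genes. Each line is 1 RefSeq window, the horizontal axis is the distance from the transcription start in bases, filled squares are matches to the core and the open square in Ifi209 is a run 1 base away from the run GAAATCGAAA; in Ifi203, Mndal, Ifi211 and Ifi207 the filled square lies between 35 and 41 bases before a start.

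The members were expressed at very different levels, which are compared here as normalized counts per kilobase of annotated exon. Ifi207, a nuclear member, was the highest at 1037 ± 73.8 in Elmo1+/- libraries (SD, n = 4). Ifi204, whose protein p204 has been studied in macrophage differentiation and DNA sensing, followed at 517 ± 69.4 per kilobase. Ifi209 followed with 428 ± 50.7 per kilobase, below Ifi204 by more than either SD.

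Aim2, the DNA sensor of the inflammasome, stood at 306 ± 6.58 normalized counts per kilobase in Elmo1+/- libraries. Mndal, a gene related to the myeloid nuclear differentiation antigen, stood at 283 ± 29.2 per kilobase, a difference from Aim2 smaller than its own SD. Ifi211, also named Mnda, was at 208 ± 18.2 per kilobase. Aim2 was therefore among the middle members in level, and its SD was the smallest relative to its mean.

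Ifi203, a member with a pyrin and a HIN domain, was at 130 ± 16.9 normalized counts per kilobase in Elmo1+/- libraries. Ifi213, listed in RefSeq also as Pydc4, was at 24.1 ± 6.64 per kilobase. Ifi205, a regulator of ASC in macrophages, was at 11.0 ± 3.21 per kilobase, and the pseudogene Ifi203-ps at 6.09 ± 2.67. The last pair rested on 34 to 122 and on 8 to 38 reads per library, so their values are the least precise. Together the members took between 0.0295% and 0.0548% of the reads on genes.

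Several of these genes are near copies of each other, which matters for how their reads were assigned. Of the windows of 75 bases, the read length, in the annotated transcripts of Ifi211, 63.6% were also present in another gene, chiefly Ifi205 (40.6%), Ifi204 (23.0%) and Mndal (10.4%). For Ifi209 the share was 23.1%, all of it with Ifi214. Ifi203-ps shared 11.6% of its windows, mostly with Ifi203 (10.8%). For Ifi205 it was 16.7%, for Ifi204 13.2% and for Mndal 11.1%. Ifi213, Ifi203 and Ifi207 shared 8.07%, 5.71% and 2.80%, and Aim2 shared 0 of its 3477 windows. Mndal and Ifi203 also overlap by 37 bases of exon on the same strand. Reads were paired, which places more fragments than single windows show, and how the counting treated reads with several matches is not given in the sources used here, so the values of Ifi211, Ifi209, Ifi205, Ifi204, Ifi203-ps and Mndal are uncertain to that extent.

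**Figure D2:**
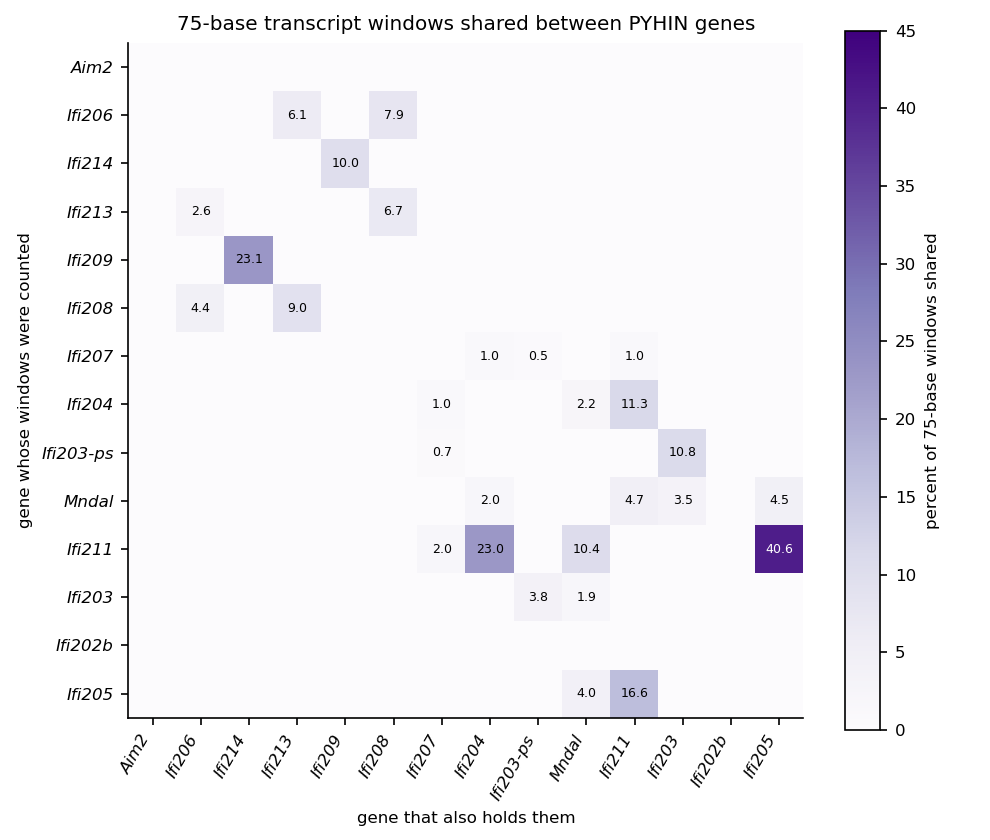
Share of 75-base transcript windows that PYHIN genes hold in common. Each cell gives the percent of the windows of the row gene that the column gene also holds, with empty cells at 0; Ifi211 shared 40.6% with Ifi205, while Aim2 and Ifi202b shared none.

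The question of the genotype comparison was whether osteoclasts without ELMO1 express these genes differently. By limma across all genes, 0 of the 10 members passed an adjusted p of 0.05, against 0.00707% of all genes, which is Elmo1 alone. The fold change on the log2(normalized count + 1) scale was above 0 in 10 of 10 members and in 6838 of the 14139 genes tested. Its median was 0.42 in the members, beside -0.0031 over all genes tested. At an unadjusted p under 0.05 there were 2 higher members, Ifi203-ps and Ifi211, and 0 lower ones, against 0.530% of all genes higher. edgeR on the recovered reads also placed 2 members under that unadjusted p (0.545% of all genes higher), DESeq2 placed 3 (0.552%), and both called 0 after adjustment. Without Elmo1-/- mouse 3 the count at the unadjusted p was 7 of 10, against 0.835% of all genes. Without Elmo1-/- mouse 1 it was 2 of 10, against 1.21%, and the median log2 fold change was 0.17. The study's own list of genes that differ, drawn from these same libraries, includes Ifi203, Ifi211 and Ifi209, so these members are not independent evidence of a direction.

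In Ifi211, the 4 Elmo1-/- libraries held 948, 506, 409 and 558 normalized counts for mice 1 to 4. The Elmo1+/- libraries held 345, 389.5, 341 and 406. Every Elmo1-/- library was above every Elmo1+/- library, although Elmo1-/- mouse 3 and Elmo1+/- mouse 4 were nearly level. The log2 fold change was 0.64 (SE 0.23, limma adjusted p = 0.999928, exact two-sided permutation p = 0.0286, the smallest that 4 against 4 mice allow). The genotypes were apart in this way, with Elmo1-/- higher, in 2 of 10 members and in 0.502% of all genes tested. Without Elmo1-/- mouse 1 the log2 fold change of Ifi211 was 0.40.

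The other member whose genotypes did not overlap was Ifi203-ps, a pseudogene annotated between Ifi204 and Mndal. Its normalized counts were 28.4, 29.9, 30.9 and 29.6 in Elmo1-/- and 11.0, 25.7, 12.2 and 13.3 in Elmo1+/-, again for mice 1 to 4. The difference on the log2 scale, 0.97 (SE 0.27, limma adjusted p = 0.999928, exact permutation p = 0.0286), was the highest of the members. It was also the 1 member that was not highest in Elmo1-/- mouse 1, and its fold change was 0.99 without that mouse. The part that reads shared with Ifi203, which held 511 to 1546 reads per library against 8 to 38 for Ifi203-ps, have in this difference was not tested.

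In Ifi203, the Elmo1-/- libraries held 1463, 1072, 790.5 and 1179 normalized counts, and the Elmo1+/- libraries 811, 1033, 778 and 861. Mice 1, 2 and 4 of Elmo1-/- were above all controls, and mouse 3 fell among them. The difference on the log2 scale was 0.34 (SE 0.18, limma adjusted p = 0.999928, exact permutation p = 0.143), and 0.21 without Elmo1-/- mouse 1.

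In Ifi204, the values were 4494, 2122, 1679 and 2339 normalized counts in Elmo1-/- and 1642, 2171, 1663 and 1894 in Elmo1+/- mice. Mouse 1 of Elmo1-/- was far above all others, mouse 4 was slightly above the controls, and mice 2 and 3 were among them. Its log2 difference of 0.43 (SE 0.27, exact permutation p = 0.229) became 0.15 without that mouse.

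Ifi209, which the study lists under the name Pyhin1, had 3166, 1892, 1369 and 1970.5 normalized counts in Elmo1-/- and 1483, 1774, 1354 and 1460.0 in Elmo1+/- mice. The controls lay within the range of the mutants apart from Elmo1+/- mouse 3, just below it. Its log2 fold change was 0.41 (SE 0.22, exact permutation p = 0.171), and 0.19 without Elmo1-/- mouse 1.

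Ifi213 was the member with the widest spread. It had 606, 202, 109 and 216 normalized counts in Elmo1-/- and 155, 227, 119 and 158 in Elmo1+/- mice. Elmo1-/- mouse 1 was 3.84 times the median of the other 7 libraries, while Elmo1-/- mouse 3 was the lowest of all. On the log2 scale the genotypes differed by 0.53 (SE 0.46, exact permutation p = 0.457), and 0.07 without mouse 1.

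Ifi205 had 115, 51.5, 42.6 and 86.3 normalized counts in Elmo1-/- and 35.9, 33.6, 51.8 and 61.9 in Elmo1+/- mice. Here Elmo1-/- mice 1 and 4 were above all controls and mice 2 and 3 were among them. Its log2 fold change was 0.61 (SE 0.34, exact permutation p = 0.200), and 0.37 without Elmo1-/- mouse 1.

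Mndal had 1827, 1177, 852 and 1153 normalized counts in Elmo1-/- and 1019, 1177, 944 and 961 in Elmo1+/- mice. All controls lay inside the range of the mutants, and the log2 fold change was 0.24 (SE 0.20, exact permutation p = 0.343), and 0.04 without Elmo1-/- mouse 1. The most abundant member, Ifi207, had 4508, 3854, 3493 and 3918 normalized counts in Elmo1-/- and 3177, 3746, 3651 and 3613 in Elmo1+/- mice. Its libraries differed by 1.42 times at most, and its log2 fold change was 0.15 (SE 0.09, exact permutation p = 0.171), 0.08 without Elmo1-/- mouse 1 and 0.10 without Elmo1+/- mouse 1.

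Aim2 was the steadiest member, with 1192, 1158, 1037 and 999.6 normalized counts in Elmo1-/- and 1067, 1064, 1105 and 1053 in Elmo1+/- mice. The highest library was 1.19 times the lowest. Elmo1-/- mice 1 and 2 were above all controls and mice 3 and 4 below all of them. On the log2 scale the genotypes differed by 0.03 (SE 0.07, exact permutation p = 0.686), and -0.01 without Elmo1-/- mouse 1.

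**Figure D3:**
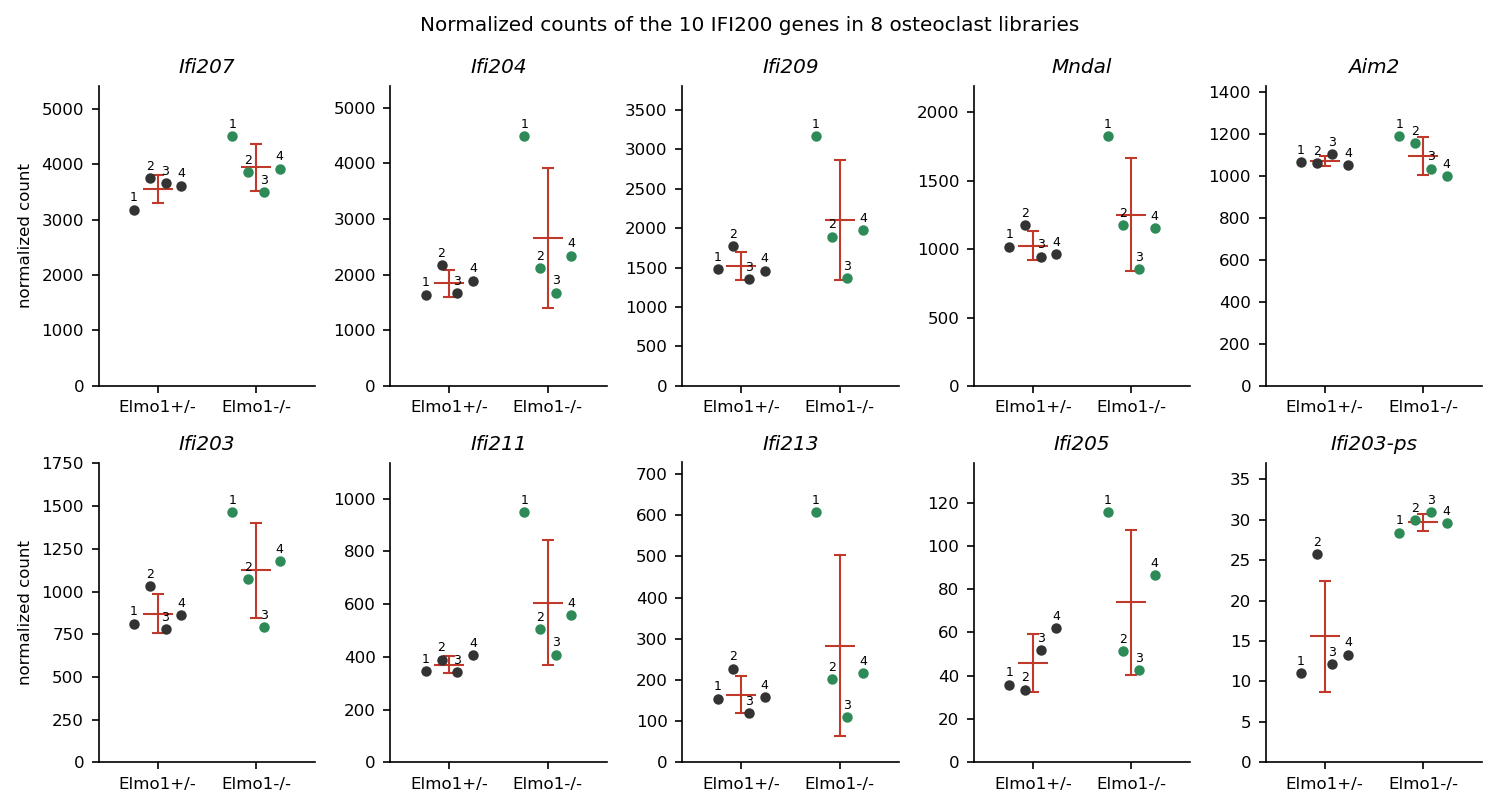
Normalized counts of the 10 IFI200 members in each library. Points are mice, numbered 1 to 4 within a genotype, with Elmo1+/- in black and Elmo1-/- in green, red bars are the mean ± SD of 4 mice, and each vertical axis starts at 0; Elmo1-/- mouse 1 was the highest library in 9 of 10 members.

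**Figure D4:**
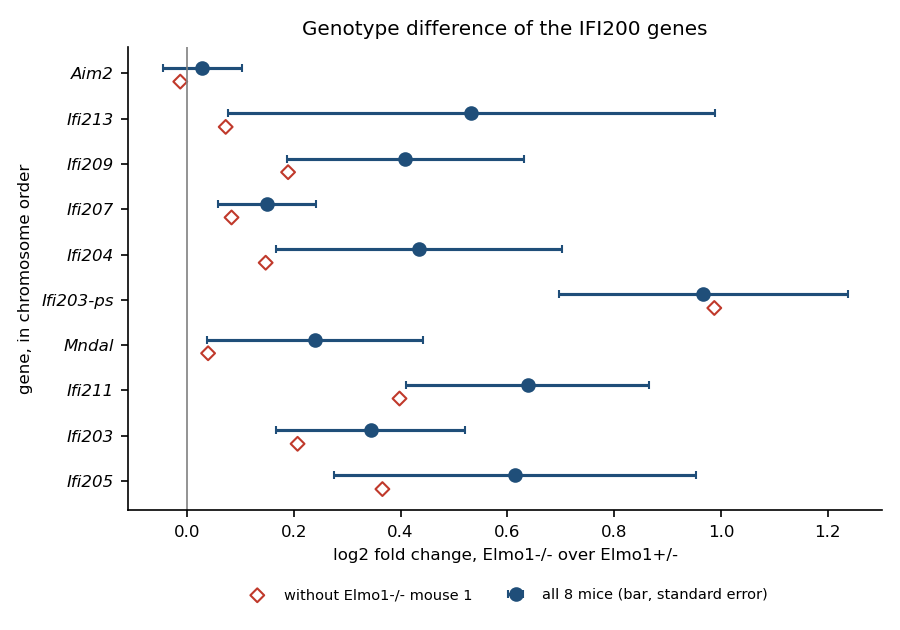
Genotype difference of each member as a log2 fold change, Elmo1-/- over Elmo1+/-, with genes in chromosome order. Filled points are the estimates from all 8 mice with bars of 1 standard error, and open diamonds are the estimates without Elmo1-/- mouse 1, which lay nearer 0 in 9 of 10 members; for Ifi203-ps it moved from 0.97 to 0.99.

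One library thus carried much of the variation. Elmo1-/- mouse 1 was the highest of the 8 libraries in 9 of 10 members, whereas it was highest in 27.1% of all genes tested. The excess over the median of the other 7 libraries was 3.84 times in Ifi213, 2.37 times in Ifi204, 2.33 times in Ifi211, 2.24 times in Ifi205 and 2.14 times in Ifi209. It was smaller in Mndal (1.79 times), Ifi203 (1.70 times), Ifi207 (1.23 times) and Aim2 (1.12 times). The summed normalized counts of the members were 18347 in this library, between 9812 and 12449 in the other 3 Elmo1-/- libraries, and between 9745 and 11641 in the Elmo1+/- libraries.

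The same library was lowest or highest in the summed markers of several cell kinds, but inside the range of the others for dendritic and stromal markers. Of single markers, 3 of 3 monocyte, 4 of 7 neutrophil and 5 of 7 macrophage markers were highest in that library. The sum of 10 osteoclast markers, such as Acp5 and Ctsk, was lowest in it, at 450909 normalized counts, with 527397 to 1173010 in the other Elmo1-/- and 589400 to 1091130 in the Elmo1+/- libraries. The sum of 3 monocyte markers was 712 normalized counts there, 265 to 307 in the other Elmo1-/- and 198 to 404 in the Elmo1+/- libraries. The sum of 7 neutrophil markers was 22550.2 there, 10341 to 13140.0 in the other Elmo1-/- and 12308 to 21491 in the Elmo1+/- libraries, and that of 7 macrophage markers was 224764 against 179320 to 207123 and 163265 to 219074. The summed markers of T and NK cells were 4.73 at most, with Ncr1 at 0 in every library. Of 3 markers of plasmacytoid dendritic cells, Siglech and Ly6d were close to 0, while Tcf4 held 977 to 1307 normalized counts in every library, with 1274 in Elmo1-/- mouse 1. The sum of 4 B cell markers was 416 normalized counts in that library, 160.3 to 241 in the other Elmo1-/- and 164 to 335 in the Elmo1+/- libraries; nearly all of it was Cd79b, the 1 of them that passed the filter, which was highest there at 409. Dendritic cell markers summed to 477 in that library against 415 to 685 elsewhere, and stromal markers to 1075 against 720.4 to 1204. The part of these cells in the members' values was not tested, and in bulk RNA fewer cells of a type cannot be told apart from less RNA per cell.

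**Figure D5:**
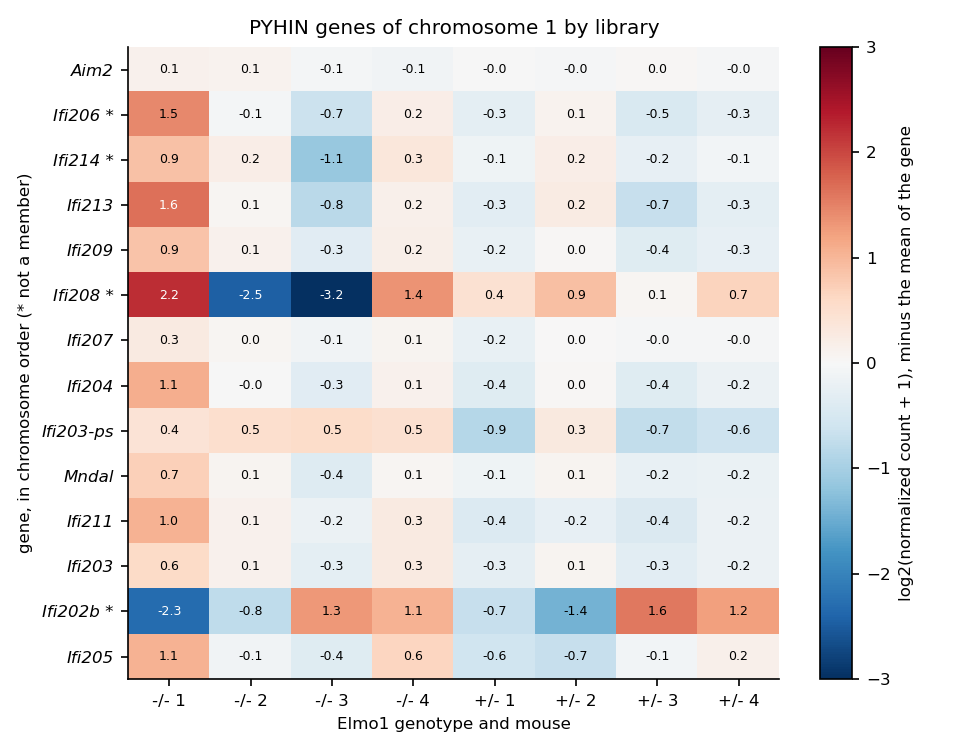
All 14 PYHIN genes of the table in chromosome order by library. Each cell is log2(normalized count + 1) minus the mean of that gene over the 8 libraries, and asterisks mark genes that are not members; the column of Elmo1-/- mouse 1 is above 0 in 13 of 14 genes, and Ifi202b runs the other way.

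The libraries numbered 1 and 2 also differed from those numbered 3 and 4 in both genotypes. The first principal component of all tested genes (62.3% of the variance) showed this split, which was known from earlier results of these data. On that component the Elmo1+/- libraries were at 0.28, 0.32, -0.38 and -0.30 for mice 1 to 4. Elmo1-/- mouse 1 was at 0.63 and mice 3 and 4 at -0.32 and -0.30, with mouse 2 at 0.072, between these sets. Between these sets limma called 32.6% of all genes and 0 of the 10 members, with Mndal (log2 difference 0.38, SE 0.15, adjusted p = 0.0819) and Ifi213 (0.82, SE 0.36, adjusted p = 0.111) the closest. All 10 osteoclast markers were lower in numbers 1 and 2 by the same test. The interaction of genotype and set called 0 members and 0% of all genes. For Aim2 the genotype difference was 0.14 on the log2 scale within numbers 1 and 2 and -0.08 within numbers 3 and 4, with an unadjusted interaction p of 0.0879 by limma and an adjusted p of 0.999857. For Ifi211 these differences were 0.92 and 0.36, and for Ifi203-ps 0.75 and 1.18. The remaining 7 members were also higher in Elmo1-/- within both sets, from 0.27 to 1.13 within numbers 1 and 2 and from 0.03 to 0.24 within numbers 3 and 4.

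Among the PYHIN genes that are not members, Ifi206, with the core 40 bases before its start, ran like Ifi213. Its normalized counts were 1278, 448, 297 and 532 in Elmo1-/- and 379.8, 500.3, 338 and 389 in Elmo1+/- mice, and its log2 fold change was 0.46 (SE 0.38), and 0.06 without Elmo1-/- mouse 1. Ifi214 had 64.3, 39.5, 15.0 and 43.6 against 31.3, 39.5, 28.9 and 32.4. Neither was called by genotype, and in both the genotypes overlapped.

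Ifi202b, which has HIN domains but no pyrin domain and is known to oppose Aim2, behaved unlike the members. Its normalized counts were 11.4, 34.7, 149 and 125 in Elmo1-/- and 36.8, 21.8, 183 and 143 in Elmo1+/- mice. All 4 libraries numbered 1 and 2 were below all 4 numbered 3 and 4, with a log2 difference of -2.59 (SE 0.31, limma adjusted p = 0.000900). By genotype, its log2 fold change was -0.36 (SE 0.93). Its promoter held no ISRE core, and those of Ifi209 and Aim2 held none either. It held the core of the gamma-activated site, as did 8.327% of all windows. The part of such sites in the values of any PYHIN gene, Ifi206 included, was not tested.

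Ifi208, named Pydc3 in RefSeq as well, was the most uneven of the 14 genes. Its reads numbered 156, 4, 3 and 103 in Elmo1-/- and 46, 59, 21 and 52 in Elmo1+/- mice. In normalized counts these were 148, 4.79, 2.50 and 80.1 against 42.3, 58.3, 32.0 and 49.5, so Elmo1-/- mice 2 and 3 lay below every control and mice 1 and 4 above. It shared 9.04% of its windows with Ifi213, which held 169 and 131 reads in Elmo1-/- mice 2 and 3, and how reads were divided between them was not tested. Its log2 fold change was -1.03 (SE 1.13, limma) on the log2 scale and 0.37 by edgeR, and no call was made by either.

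The partners of these genes were examined through lists. Of 8 genes of the AIM2 inflammasome, 0 were called and 0 had an unadjusted p under 0.05, with a median log2 fold change of 0.05, and -0.08 without Elmo1-/- mouse 1. Pycard, the adaptor, held 2030.4 to 3276 normalized counts in Elmo1-/- and 2165 to 3067 in Elmo1+/- libraries, and Casp1, the protease, 2866 to 3958 and 3046 to 3326. Of 11 genes of DNA sensing through STING, 9 were tested and 0 called, with a median of 0.06, and -0.07 without Elmo1-/- mouse 1. Ifnb1, which encodes interferon beta, was at most 2.84 normalized counts in any library. Of 12 interferon receptors and factors, 0 were called.

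Of 18 interferon-stimulated genes outside the cluster, 0 were called. By limma, 6 of them were higher at an unadjusted p under 0.05, against 0.530% of all genes tested. All 18 fold changes were above 0, as were those of 6838 of the 14139 genes tested. The median log2 fold change of the 18 was 0.45, and 0.21 without Elmo1-/- mouse 1, close to the members' 0.42 and 0.17. Elmo1-/- mouse 1 was the highest library in 16 of the 18, and in 27.1% of all genes tested. The study took many of the 18 into its own list from these libraries, so their direction is not independent evidence either.

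The genes whose profile over the 8 libraries was most like the mean of the members, by the root mean square difference of centred log2 values, were Gbp6 (0.0693), Gm12250 (0.0770), Oas3 (0.0839), Slfn8 (0.0871) and Irgm1 (0.0889). For all genes tested the median of that difference was 0.388. Gbp6, a guanylate-binding protein, held 323, 182, 152 and 218 normalized counts in Elmo1-/- and 156, 189, 142 and 158 in Elmo1+/- mice. This likeness rests on 8 shared libraries and mostly on Elmo1-/- mouse 1. By single members, the nearest gene was Isg15 for Ifi204, Ifi44 for Ifi211, Irgm1 for Mndal, Ifi206 for Ifi213, Gbp6 for Ifi209, Gbp2 for Ifi205, Ddx58 for Ifi203 and Trim12c for Ifi207. It was Eif4e3 for Aim2 and Gm26737 for Ifi203-ps.

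The neighbourhood of the cluster was otherwise quiet. Of 40 genes annotated within 500 kb on either side, 31 were at 0 in every library. Of 7 other annotated genes lying between the members, 0 passed the filter on low values. The position of the members ran from base 173350879 to base 174031810 of chromosome 1 in GRCm38.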

How the data were processed

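One library per mouse from 4 Elmo1-/- and 4 Elmo1+/- osteoclast cultures was used. The authors made polyA libraries, read 75 base pairs from both ends and, per the labels' processing notes, used STAR, featureCounts and DESeq2, with versions and build not stated there. The values deposited by the authors are a signal, each count divided by 1 size factor per library. The authors' deposited comparison columns (log2 fold change, standard error, test score, p-value, adjusted p-value) were not used. Gene symbols and coordinates are those of GENCODE M21 on GRCm38 (46005 identifiers matched, 512 did not). Reads were recovered by dividing a library by its smallest step, and 100% of the results were whole numbers with a tolerance of 0.01.

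Genotypes were compared in R 4.3.3 by limma 3.58.1, moderated with a mean trend and robustly, on log2(normalized count + 1). A gene was tested if 4 or more libraries reached 10 normalized counts. Adjustment was by Benjamini-Hochberg over all tested genes, with a threshold of 0.05. The log2 fold change understates low genes. Single genes were also tested by exact two-sided permutation over the 70 arrangements of mice. edgeR 4.0.16, DESeq2 1.42.0 and sva 3.50.0 served as alternatives, with TMM, equal totals, other filters and pseudocounts, a replicate block, the set of numbers as a term, and each mouse left out. The steps were tested on simulated data. Deviations of same-numbered libraries from their genotype means correlated at 0.156 to 0.704, every pair above 0.1, the limit used for pairing, with no source in the labels. Differently numbered libraries of the same set (1 and 2, or 3 and 4) correlated at 0.0259 to 0.691, so the correlations follow the sets as much as the numbers. No libraries of a genotype were copies. The mice are separate animals.

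The members and gene lists were chosen with earlier results of these data known. The named genes were all PYHIN genes, the 5 most like the members' mean profile, and list genes that bear on them. Sequences came from RefSeq promoter windows, and shared windows from GENCODE transcripts. Some items are not reported here.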

Additional observations from a re-analysis of the deposited data

Results flagged for a closer look

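In Ifi203-ps, Elmo1+/- mouse 2 stood apart from the other controls, with 25.7 normalized counts (26 reads) against 11.0 to 13.3 (8 to 14 reads). The gap to its nearest neighbour was 0.844 of the range of the 4 libraries, above the critical value of 0.829 for 4 samples. It was the 1 such value among 28 groups examined (14 PYHIN genes in 2 genotypes), and chance flags about 1 in 20 groups.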

How the results depend on the processing

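Under 19 alternative settings of the genotype comparison, 0 members passed the threshold in each of the fits, and adjusted p ran from 0.936 to 0.99998. Of 189 member values, 188 kept their direction, the exception being Aim2 without Elmo1-/- mouse 1. With the replicate block, 0 members were called and 3 had an unadjusted p under 0.05, and the pairing changed no call. Of all 14139 genes tested, 182 were higher at that p with the block, against 75 in the main comparison. The count of members was 2 in the main comparison, 1 with a minimum of 50, which removes Ifi203-ps, and 4 with the set of numbers as a term. It was 4 with 1 surrogate variable, and 2 to 7 on leaving out single mice, with 7 without Elmo1-/- mouse 3 (0.835% of all genes higher). For the minimum of 50, the set term and the surrogate variable no share over all genes is given. Of the single mice left out, it is given only for Elmo1-/- mouse 1 (1.21%) and mouse 3. The counts without a share cannot be read as particular to the members. All genes called numbered 1, and 2 with DESeq2, 2 without Elmo1+/- mouse 2 and 3 with 1 surrogate variable. Leaving out single mice gave 0 members called in the comparison of the sets of numbers. The log2 fold change ranged from -0.013 to 0.072 in Aim2, from -0.89 to 0.35 in Ifi202b (0.35 without Elmo1-/- mouse 1, 0.11 without Elmo1+/- mouse 3) and from -0.14 to 0.54 in Ifi214. For Ifi208 it was 0.37 by edgeR and 0.37 by DESeq2, and -1.95 to -0.14 by limma. The difference between the sets ranged from -0.021 to 0.12 in Ifi207, from -0.43 to 1.44 in Ifi208 and from -0.11 to 0.35 in Ifi203-ps. The cause of these turns was not tested. Depth limits Ifi203-ps and Ifi205, with 8 to 122 reads per library.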
